A study of Rattus norvegicus with 6 samples.

Results

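Solute carriers (SLC) are the membrane proteins that move sugars, amino acids, phosphate, metabolites and ions into and out of cells and organelles. Outside the organic anion and cation family and a few carriers taken up with other kidney segments, 241 probes of 189 gene names (186 of them carriers) made up the set described here, of 41012 probes on the array. All 241 are called carrier probes below, although 3 of them, among them the scaffolds Nherf1 and Nherf2, read genes that are no carriers. A further probe, named Slc35b2, has an accession that belongs to Nfkbie. It is counted as a carrier by its array name, as are all 186. The set started from 348 probes named Slc with a digit, of which 317 stayed after the named exclusions (the SLC22 family and Slc12a1, Slc4a1, Slc26a4, Slc8a1, Slc7a11, Slc25a20, Slc11a2, Slc40a1 and Slc2a1). Of these 317, 241 were well above background, by the scanner software's flag, in the Cy3 channel of all 4 arrays of mutant kidney, and 76 were not. Because that flag chose the set, Cy3 levels are given only as description, and the ratios below share this channel as their denominator.

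The series compared kidneys of the Han:SPRD Cy rat, a spontaneous model of polycystic kidney disease, at 3 and 7 days of age. Each of 6 arrays with 2 colours carried in Cy5 the pooled left-kidney RNA of 1 genotype (+/+, Cy/+ or Cy/Cy) at 1 age, and in Cy3 a +/+ pool of the same age and strain. The animals per pool were not stated in the sources used here, dyes were not swapped, and the 2 ages were the only repeats of a genotype. The labels name no separate pools or animals behind those repeats, so a p-value here reflects how far the arrays scatter and may be technical. All arrays of 1 age shared a slide, and age and slide cannot be told apart. The reference was always in Cy3, so a dye effect on a probe cannot be told apart from a difference from the reference. A log2 ratio above 0 means more signal in the pool that names the array than in its +/+ reference.

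The arrays labelled +/+ went against their label. By the labels they set a +/+ pool against a +/+ pool, yet the SD of the log2 ratio over all probes was 1.1 at 3 days and 0.939 at 7 days, against 0.156 to 0.317 on the 4 mutant arrays. In their Cy5 channel all 6 skeletal muscle, 6 liver and 4 adipose marker genes measured were higher than in the reference, by medians of 4.29, 4.72 and 4.50 on the log2 scale. On the same arrays 13 of 14 proximal tubule and 6 of 6 thick ascending limb markers were lower, by medians of -2.34 and -2.91. Mutant pools were therefore set against their own Cy3 reference first, and the arrays labelled +/+ are described last. In the Cy3 reference the 14 proximal tubule markers were all above the filter on dim probes. Cy3 of the arrays labelled +/+ also stood apart. Summed Cy3 levels of the muscle markers were 20486.5 and 40469.8 there, against 1079 to 1669 on the mutant arrays. Those of the thick ascending limb markers were 260588 and 224259, against 111594 to 146126. The reason was not tested.

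In the mature proximal tubule the brush border takes glucose, amino acids and phosphate back from the filtrate with sodium, and the basolateral side releases them to the blood. Sodium-glucose cotransporters of the SLC5 family, amino acid exchangers of SLC7 with their SLC3 partners, and the SLC34 phosphate cotransporters do this work. Among them Slc34a1 is anchored by scaffold proteins such as Nherf1. The distal nephron handles salt and urea with SLC12, SLC9, SLC4 and SLC14 proteins, and SLC25 proteins carry metabolites across the inner mitochondrial membrane. In these pooled whole-kidney samples, fewer cells of a type and less RNA per cell cannot be told apart.

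The probes on which the results turn are printed here because the values are readings of these 60 bases and because 2 probes of a gene did not always give the same reading. They come from the deposited scanner files, with coordinates of build rn3 and no strand stated. Capitals mark AATAAA, the polyadenylation signal, which occurred in 10 of the 241 probes (4.15%) and in 4.26% of all probes on the array (sense strand of the probe only). The Slc7a13 probe lies at chr5:34434756-34434815 and the Slc34a2 probe at chr14:62662513-62662572. The probes of Slco1a3 (named Slc21a4 on the array) lie at chr4:179798060-179798119 and chr4:179808520-179808579, and that of its relative Slco1a6 (named Slc21a13) at chr4:179941953-179942012. The Slc2a4 probes lie at chr10:56800484-56800543 and chr10:56804405-56805712, 3921 bases apart, and the Slc5a2 probes at chr1:187679168-187679227 and chr1:187678927-187678986.
Slc7a13: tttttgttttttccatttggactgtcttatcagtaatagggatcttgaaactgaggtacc
Slc34a2: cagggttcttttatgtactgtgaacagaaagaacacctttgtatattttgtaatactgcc
Slco1a3, probe 1: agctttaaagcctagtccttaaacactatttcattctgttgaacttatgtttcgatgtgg
Slco1a3, probe 2: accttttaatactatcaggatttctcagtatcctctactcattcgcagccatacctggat
Slco1a6: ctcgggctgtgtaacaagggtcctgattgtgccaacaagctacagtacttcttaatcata
Slc2a4, probe 1: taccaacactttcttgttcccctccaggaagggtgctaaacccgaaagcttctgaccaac
Slc2a4, probe 2: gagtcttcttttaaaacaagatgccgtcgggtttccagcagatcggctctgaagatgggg
Slc5a2, probe 1: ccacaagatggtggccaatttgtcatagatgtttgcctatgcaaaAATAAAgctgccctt
Slc5a2, probe 2: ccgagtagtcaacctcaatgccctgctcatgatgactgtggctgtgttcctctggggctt
The longest run shared by the Slco1a6 probe and either Slco1a3 probe was 5 bases. The longest run shared by the Slc2a4 probes was also 5 bases, so each reads its own stretch. Probe 1 of a gene is the brighter one throughout.

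In the Cy/+ kidneys, 40 of the 241 carrier probes passed an adjusted p of 0.05 against the reference (16.6%, limma), 38 of them for carriers and the others for Nherf1 and Nherf2, where 8.09% of all 30898 probes tested did. Among them 29 were higher (26 gene names, background 4.74%) and 11 were lower (10 gene names, background 3.35%). The amino acid exchanger Slc7a13 stood highest, followed by the anion carrier Slco1a3, the ascorbate-family member Slc23a3 and the phosphate cotransporter Slc34a2, while the urea transporter Slc14a2 stood lowest. All 40 lay on 1 side of 0 at both ages, which a call on the mean of these 2 readings largely requires. Only 3 probes reached a mean change of 2-fold, those of Slc7a13 and Slc23a3 and the dimmer Slco1a3 probe. The median of the 241 was 0.06, against 0.0046 over all probes. The Cy/+ backgrounds given here and below cover all probes tested, which met a looser rule on signal than the carrier probes. They therefore include dimmer probes. With a stricter filter on dim probes, 45 of 238 carrier probes passed (32 higher and 13 lower), against 11.0% of all probes, so the contrast with 8.09% is partly one of filter. With age as a term, since same-age arrays shared a slide, 77 carrier probes passed (50 higher and 27 lower), and 15.8% of all probes. With the software's own log ratio, or with all 6 arrays in the fit, 0 passed, and with ratios scaled between arrays 18 did (3.0% of all probes). Leaving out the 3-day Cy/+ array gave 22 (2.67% of all probes), and leaving out either Cy/Cy array gave 21 (3.28% of all probes).

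The Cy/Cy kidneys gave 0 called carrier probes in the same fit (background 0.00647%, which is 2 probes), with 46 at an unadjusted p under 0.05 by limma (19.1%, background 8.64%). In the direct comparison of Cy/Cy with Cy/+, also by limma, 0 carrier probes and 0 of all probes passed. An unadjusted p under 0.05 by limma was reached there by 27 carrier probes (11.2%, background 6.11%). A call in Cy/+ and none in Cy/Cy is therefore not shown to be a difference between them. Where readings of the genotypes are said below not to overlap, the share over all probes was not counted. Of the 29 probes called higher in Cy/+, 29 had a Cy/Cy mean above 0, and of the 11 called lower, 10 had one below 0. Of all 241, 155 had a Cy/Cy mean above 0 and 86 below. The same count over all probes called in Cy/+ was not made, so the agreement is not shown to be particular to carriers. Both sets of ratios used a +/+ reference of the same ages and the same dyes, so they are not independent of each other. Leaving out an array left too few of its genotype for the resulting calls to be judged.

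**Figure D1:**
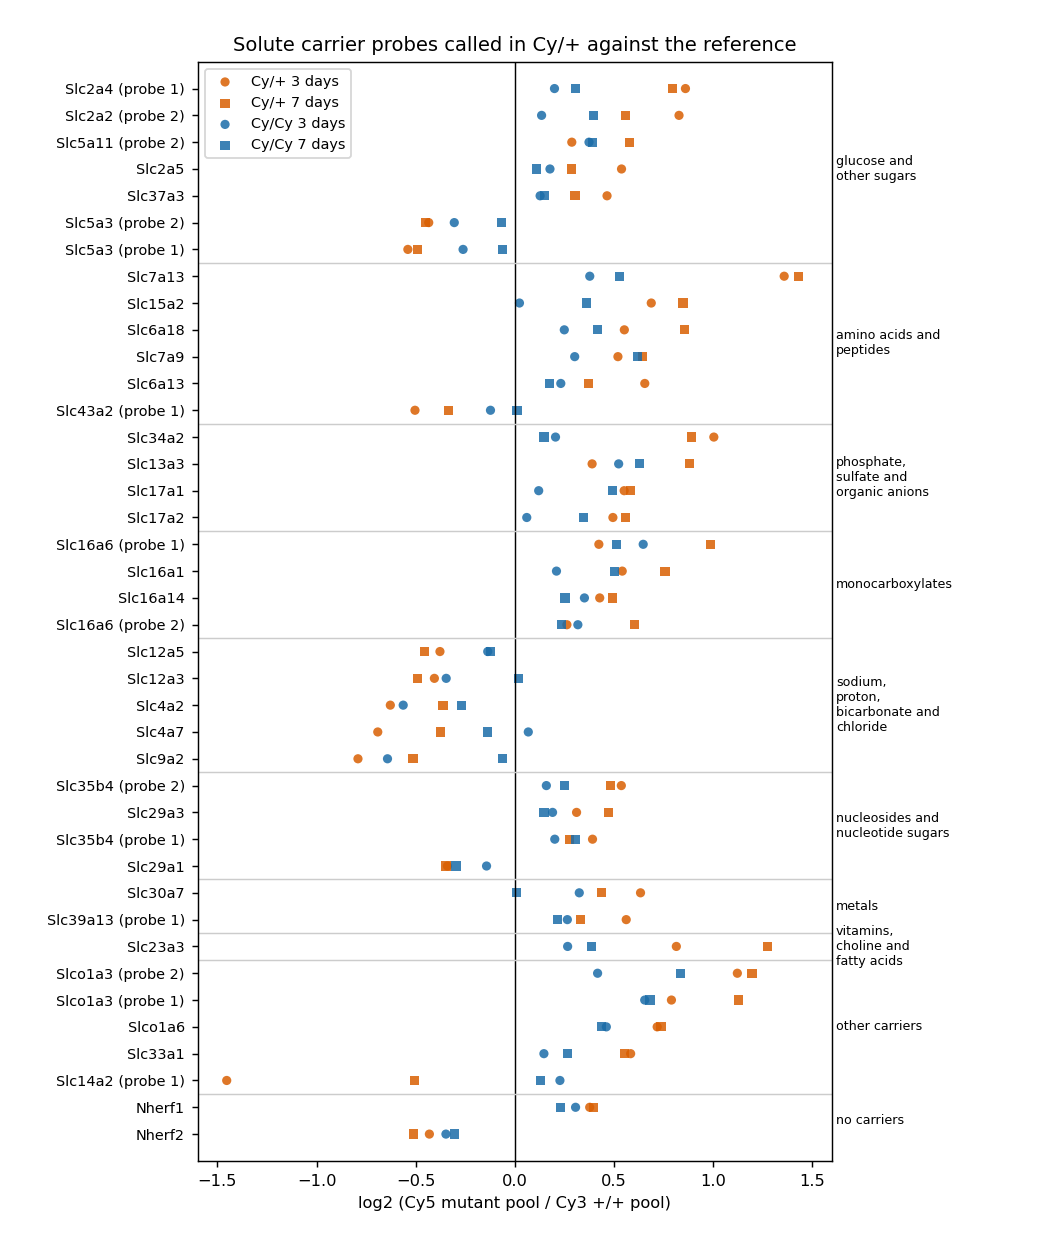
Each row is 1 of the 40 solute carrier probes called in Cy/+ by limma at an adjusted p of 0.05, grouped by carrier type, with the log2 ratio of the mutant pool (Cy5) to the +/+ reference (Cy3) on the x axis for each of the 4 mutant arrays. The rows were chosen by their Cy/+ values, which largely requires both Cy/+ arrays to lie on 1 side of 0, as they do in every row. Slc7a13 is farthest to the right, at 1.36 and 1.43. For most probes the Cy/Cy arrays lie nearer to 0 than the Cy/+ arrays. Choosing rows by their Cy/+ values favours this too, and limma called no difference between the genotypes.

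Among 24 sugar carrier probes, 5 were higher and 2 lower in Cy/+ (backgrounds 4.74% and 3.35%), and the median was 0.02. The insulin-responsive glucose transporter Slc2a4 read 0.86 at 3 days and 0.79 at 7 days on probe 1 in Cy/+, and 0.20 and 0.30 in Cy/Cy. Its mean in Cy/+ was 0.83 with an SE of 0.07, which is 1.78-fold, and the adjusted p was 0.0069 by limma (n = 2 arrays). Cy/+ lay above Cy/Cy at both ages, but the difference of -0.58 had an adjusted p of 0.50. Probe 2 of Slc2a4 read 0.14 and 0.04 in Cy/+ and 0.08 and -0.19 in Cy/Cy, so the call rested on 1 of its 2 probes. That first probe was printed at 10 spots per array, and the second at 1.

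Adipose markers were read on the same arrays as Slc2a4. All 4 measured (Adipoq, Fabp4, Plin1 and Cfd) were above 0 in Cy/+ at 3 days, from 0.48 to 2.84, and their summed Cy5 level was 9055 against 2240 in Cy3. At 7 days in Cy/+ they ran from -0.36 to 0.43 with sums of 1509 and 1547. In Cy/Cy their sums were 3194 in Cy5 and 2195 in Cy3 at 3 days, and 2414 and 1608 at 7 days. None of the 4 passed the limma test in Cy/+ or Cy/Cy. The 6 skeletal muscle markers ran from -0.31 to 0.62 at 3 days and from -0.93 to -0.10 at 7 days in Cy/+, with 0 called. The part of either tissue in the Slc2a4 values was not tested.

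The basolateral glucose transporter Slc2a2 (GLUT2) gave ratios above 0 on both probes. Its dimmer probe read 0.83 and 0.56 at the 2 ages (mean 0.69, SE 0.10, adjusted p 0.020 by limma), and its brighter probe read 0.34 and 0.99 (mean 0.66, SE 0.17), which missed the threshold at an adjusted p of 0.062. In Cy/Cy all 4 readings were above 0, from 0.05 to 0.52. The fructose transporter Slc2a5 read 0.54 and 0.28 in Cy/+ and 0.18 and 0.11 in Cy/Cy. It passed in Cy/+ with a mean of 0.41 (SE 0.09, limma adjusted p 0.041), as did probe 2 of the inositol carrier Slc5a11 at 0.43 and the organelle sugar phosphate carrier Slc37a3 at 0.38.

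The osmolyte carrier Slc5a3, which brings myo-inositol into cells, fell on both of its probes. Probe 1 read -0.54 and -0.49 in Cy/+ and -0.26 and -0.06 in Cy/Cy, and probe 2 read -0.43 and -0.45 in Cy/+ and -0.31 and -0.07 in Cy/Cy. The Cy/+ means were -0.52 and -0.44, with limma adjusted p of 0.023 and 0.034. All 8 readings were below 0, and the Cy/+ readings lay below the Cy/Cy readings on each probe, a difference that limma did not call.

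The luminal glucose cotransporter of the early proximal tubule, Slc5a2 (SGLT2), was not called in either genotype. Its 2 probes gave means of -0.24 (SE 0.15) and -0.40 (SE 0.19) in Cy/+, with limma adjusted p of 0.34 and 0.22. They read -0.42 and -0.71 at 3 days and -0.05 and -0.09 at 7 days, so nearly all of the distance from 0 came from the younger pool. The high-affinity cotransporter Slc5a1 had a mean of 0.29 (adjusted p 0.070), and the glucose-6-phosphate translocase Slc37a4, which serves glucose release, had means of -0.02 and -0.14 on its 2 probes, neither called by limma.

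Among 45 amino acid and peptide carrier probes, 5 were higher and 1 lower in Cy/+ (backgrounds 4.74% and 3.35%), with a median of 0.04. Slc7a13, an aspartate and glutamate exchanger of the late proximal tubule, read 1.36 and 1.43 at 3 and 7 days in Cy/+ and 0.38 and 0.53 in Cy/Cy. The Cy/+ mean of 1.39 (SE 0.08, n = 2 arrays) is 2.63-fold, with an adjusted p of 0.0026 by limma. Both Cy/+ readings lay above both Cy/Cy readings, and the difference of -0.94 had an adjusted p of 0.35. Its Cy3 reference level stayed within 10.64 to 11.04 on the log2 scale over the 6 arrays, a channel that chose the set.

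Partners of luminal amino acid carriers were read on the same arrays. The cystine exchanger Slc7a9 read 0.52 and 0.64 in Cy/+ and 0.30 and 0.62 in Cy/Cy, and passed in Cy/+ with a mean of 0.58 (SE 0.10, limma adjusted p 0.026). Its heavy subunit Slc3a1, with which it forms the luminal cystine transporter, had a Cy/+ mean of 0.23 (SE 0.10) and did not pass, at an adjusted p of 0.19. The glycine and neutral amino acid carrier Slc6a18 read 0.55 and 0.86 in Cy/+ and 0.25 and 0.42 in Cy/Cy, with a Cy/+ mean of 0.70 (SE 0.10, limma adjusted p 0.018). Cltrn, an accessory protein that carries such transporters to the membrane, passed as well, with a Cy/+ mean of 0.77 (limma adjusted p 0.024).

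The peptide carrier Slc15a2 (PEPT2) read 0.69 and 0.85 in Cy/+ and 0.02 and 0.36 in Cy/Cy, and its Cy/+ mean of 0.77 (SE 0.10) had a limma adjusted p of 0.016. Its low-affinity relative Slc15a1 had a mean of 0.03 there. The GABA and taurine carrier Slc6a13 was higher by 0.51 (adjusted p 0.029). The neutral amino acid carrier Slc43a2 was lower on probe 1, at -0.50 and -0.34 in Cy/+ and -0.12 and 0.01 in Cy/Cy (Cy/+ mean -0.42, limma adjusted p 0.035), but turned to 0.15 when arrays were centred on their median in place of loess. The basolateral carriers Slc7a7 and Slc7a8, their partner Slc3a2, and the glutamate carrier Slc1a1 had Cy/+ means of -0.34, 0.12, -0.12 and 0.06, none called by limma.

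Among 20 probes for phosphate, sulfate and organic anions, 4 were higher and 0 lower in Cy/+ (backgrounds 4.74% and 3.35%), with a median of 0.10. All 4 called were in the SLC13, SLC17 and SLC34 families. Slc34a2 (NaPi-IIb), the phosphate cotransporter best known from lung and intestine, read 1.00 and 0.89 in Cy/+ and 0.21 and 0.15 in Cy/Cy. Its Cy/+ mean of 0.95 (SE 0.07) is 1.93-fold, with a limma adjusted p of 0.0060, and both Cy/+ readings lay above both Cy/Cy readings. The difference between genotypes of -0.77 had an adjusted p of 0.43. A second Slc34a2 probe missed the set because it was above background on 3 of the 4 arrays, and it read 0.45 and 0.32 in Cy/+ and -0.06 and -0.04 in Cy/Cy. Lung markers (3 of 3 measured) were not called in Cy/+, with a range of -0.58 to 0.12, and neither were 3 of 3 intestinal markers, with a range of -0.01 to 0.06. In Cy5 of the Cy/+ arrays 0 intestinal markers were above background, and 1 lung marker at 3 days and 2 at 7 days. The absence of a call for such dim markers therefore says little, and their part in the Slc34a2 values was not tested.

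The main renal phosphate cotransporter Slc34a1 (NaPi-IIa) stood on the other side of 0 in Cy/+. Its probes read -0.43 and -0.77 at 3 days and 0.04 and -0.23 at 7 days, with means of -0.19 and -0.50 that limma did not call (adjusted p 0.35 and 0.081). In Cy/Cy they read 0.04 and -0.19 at 3 days and 0.30 and 0.18 at 7 days. The third member, Slc34a3, had a mean of 0.05 in Cy/+ and 0.34 in Cy/Cy, and the widely expressed Slc20a1 and Slc20a2 had Cy/+ means of 0.03 to 0.22, none called.

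The dicarboxylate carrier Slc13a3 (NaDC3), a basolateral entry path for citric acid cycle intermediates, read 0.39 and 0.88 in Cy/+ and 0.52 and 0.63 in Cy/Cy. Its Cy/+ mean was 0.63 (SE 0.12, limma adjusted p 0.033) and its Cy/Cy mean 0.58 (SE 0.12, adjusted p 0.40), with overlapping readings. Slc17a1 and Slc17a2, anion and urate carriers of the phosphate family, were higher in Cy/+ by 0.57 and 0.53 (limma adjusted p 0.030 and 0.028). The sulfate carriers Slc13a1 and Slc26a1 had means of 0.49 and 0.30 in Cy/+ and were not called by limma (adjusted p 0.060 and 0.19).

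None of the 30 probes of the mitochondrial carrier family SLC25, which cover 21 gene names, was called by limma in Cy/+ or in Cy/Cy (backgrounds 8.09% and 0.00647%). In Cy/+ 11 had an unadjusted p under 0.05, against a background of 28.8% of all probes. The Cy/+ median was 0.10 and the means ran from -0.45 to 0.34. In Cy/Cy the median was 0.01, with means from -0.15 to 0.25. The ADP/ATP carriers Slc25a4 and Slc25a5, each with 3 probes, had Cy/+ means of 0.16 to 0.31 and 0.29 to 0.34. Near-identical copies of these genes exist, so the origin of their signal is uncertain. The citrate carrier Slc25a1, the dicarboxylate carrier Slc25a10 and the ornithine carrier Slc25a15 lay between -0.14 and 0.12. The lowest, the ATP-Mg/phosphate carrier Slc25a25, read -0.81 at 3 days and -0.09 at 7 days on its brighter probe.

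Among 11 SLC16 probes, the monocarboxylate carriers, 4 were higher and 0 lower in Cy/+ (backgrounds 4.74% and 3.35%). The group had the highest median of the 10 carrier groups, 0.21. The lactate and pyruvate carrier Slc16a1 (MCT1) read 0.54 and 0.76 in Cy/+ and 0.21 and 0.50 in Cy/Cy, with a Cy/+ mean of 0.65 (SE 0.10, limma adjusted p 0.022). Both probes of Slc16a6 (MCT7) passed, with Cy/+ means of 0.70 and 0.43, and the orphan Slc16a14 passed with 0.46. The Cy/Cy readings of Slc16a6 overlapped those of Cy/+ on both probes. The high-affinity pyruvate carrier Slc16a7 (MCT2) lay the other way, with a mean of -0.37 (adjusted p 0.083). The lactate exporter Slc16a3 (MCT4) had a mean of -0.16.

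The organic anion carriers of the SLC21 family were higher in Cy/+ on all 3 probes in the set. The dimmer Slco1a3 probe read 1.12 and 1.20 in Cy/+ and 0.42 and 0.84 in Cy/Cy, and the brighter one 0.79 and 1.13 in Cy/+ and 0.66 and 0.68 in Cy/Cy. Their Cy/+ means of 1.16 (SE 0.11) and 0.96 (SE 0.10) had limma adjusted p of 0.0072 and 0.0090. Slco1a6 read 0.72 and 0.74 in Cy/+ and 0.46 and 0.44 in Cy/Cy, with a Cy/+ mean of 0.73 (SE 0.07, limma adjusted p 0.0081). In Cy/Cy the 3 means were 0.67, 0.63 and 0.45, among them the 2 highest of all 241 probes in that genotype, with limma adjusted p of 0.27, 0.32 and 0.27.

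Among the remaining carriers called higher in Cy/+ were an orphan and several that act inside cells. Slc23a3, the orphan, of the ascorbate family, read 0.81 and 1.27 in Cy/+ and 0.27 and 0.39 in Cy/Cy (Cy/+ mean 1.04, SE 0.12, limma adjusted p 0.011), while the ascorbate carrier Slc23a1 had a mean of 0.31 and did not pass (adjusted p 0.12). The acetyl-CoA carrier Slc33a1 of the endoplasmic reticulum was higher by 0.57, the zinc carriers Slc30a7 and Slc39a13 by 0.54 and 0.45, and the lysosomal nucleoside carrier Slc29a3 by 0.39. Both probes of the nucleotide sugar carrier Slc35b4 passed, at 0.33 and 0.51. The plasma membrane nucleoside carrier Slc29a1 was lower by -0.34 (limma adjusted p 0.046), a value that turned to 0.26 under median centring.

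Of the 28 probes for carriers of sodium, protons, bicarbonate and chloride, 0 were called higher and 5 lower in Cy/+ (backgrounds 4.74% and 3.35%). A mean below 0 was read on 20 of them and above 0 on 8, with a median of -0.11 that turned to 0.15 under median centring. The sodium-proton exchanger Slc9a2 read -0.79 and -0.51 in Cy/+ and -0.64 and -0.06 in Cy/Cy, with a Cy/+ mean of -0.65 (SE 0.14, limma adjusted p 0.044). The anion exchanger Slc4a2 read -0.63 and -0.36 in Cy/+ and -0.56 and -0.27 in Cy/Cy (Cy/+ mean -0.50, adjusted p 0.041 by limma), and the sodium-bicarbonate cotransporter Slc4a7 read -0.69 and -0.38 in Cy/+ and 0.07 and -0.14 in Cy/Cy (Cy/+ mean -0.53, adjusted p 0.034 by limma). For Slc4a7 the Cy/+ readings did not overlap those of Cy/Cy, and for Slc9a2 and Slc4a2 they did, but limma called none of these differences. The thiazide-sensitive Slc12a3 of the distal convoluted tubule and the potassium-chloride cotransporter Slc12a5 were lower by -0.45 and -0.42. The proximal tubule members Slc9a3 and Slc4a4 had means of 0.39 (adjusted p 0.051) and -0.08, neither called by limma.

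The urea transporter Slc14a2 of the inner medulla had the lowest Cy/+ mean, on its brighter probe. That probe read -1.45 at 3 days and -0.50 at 7 days in Cy/+ and 0.23 and 0.13 in Cy/Cy, so the genotypes did not overlap. The Cy/+ mean of -0.98 (SE 0.20) had a limma adjusted p of 0.038, and the difference of 1.16 between Cy/Cy and Cy/+ had an adjusted p of 0.71. Its dimmer probe read 0.06 and -0.23 in Cy/+ and was not called. The scaffold Nherf1, which anchors Slc34a1 and Slc9a3, was higher in Cy/+ by 0.39 (readings 0.38 and 0.40), and its relative Nherf2 was lower by -0.47 (readings -0.43 and -0.51), with limma adjusted p of 0.033 and 0.022.

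**Figure D2:**
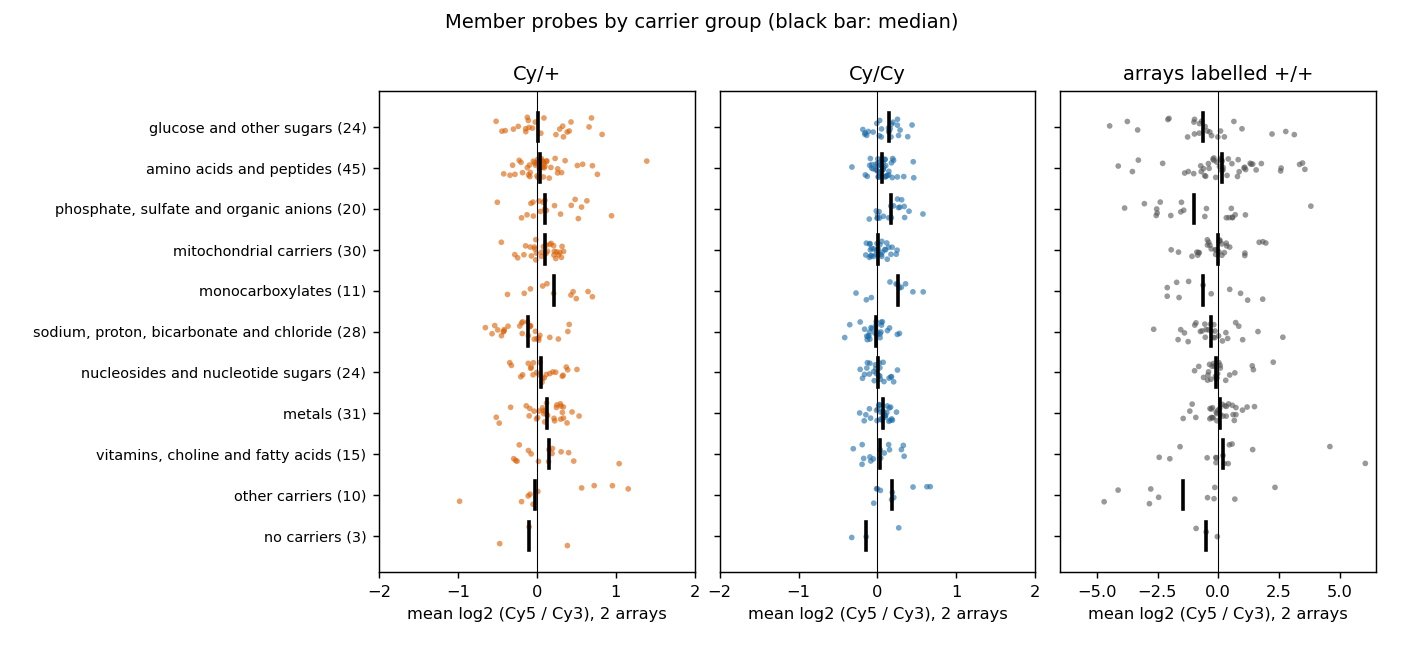
Every point is 1 of the 241 probes, placed by its mean log2 ratio (Cy5 over Cy3) over the 2 ages for Cy/+ (left), Cy/Cy (middle) and the arrays labelled +/+ (right, on a wider axis), with carrier groups as rows, the number of probes in brackets and the group median as a black bar. In Cy/+ the medians run from 0.21 for monocarboxylates to -0.11 for sodium, proton, bicarbonate and chloride, while the arrays labelled +/+ spread from -4.70 to 6.06.

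Markers of kidney segments and other cell types were read on the same arrays. In Cy/+ 7 of 14 proximal tubule markers outside the SLC genes were called higher and 1 (Miox) lower by limma, with a median of 0.40. Their summed Cy5 level was 435508 against 379883 in Cy3 at 3 days and 479917 against 323640 at 7 days. In Cy/Cy 0 of 14 were called, with a median of 0.26 and sums of 448852 against 343896 and 461119 against 314811. The 6 thick ascending limb markers had medians of -0.30 in Cy/+ and -0.06 in Cy/Cy, with 0 called. The 5 collecting duct markers had medians of -0.10 in Cy/+ and -0.13 in Cy/Cy, also with 0 called. The 5 podocyte markers had medians of -0.30 and -0.10, with 1 called lower in Cy/+ (Nphs1, -0.58, limma adjusted p 0.027). Of 6 liver markers 1 was called higher in Cy/+. Both erythroid markers measured fell in Cy/+, with a median of -0.94, and 2 of 5 macrophage markers rose. Their part in the carrier values was not tested. Of 22 listed partners and regulators of renal carriers, 3 were called higher in Cy/+, among them Cltrn and the sodium pump subunit Atp1b1 (0.78), and 0 lower, with a median of 0.03.

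Centring each array on its median in place of loess moved the median of all probes to 0.19 in Cy/+ and 0.17 in Cy/Cy. Under it 130 carrier probes passed in Cy/+ (125 higher and 5 lower, against 29 and 11), as did 49.7% of all probes, and 113 in Cy/Cy (109 higher and 4 lower), as did 42.8% of all probes. Relative to the median of all probes, the sugar, monocarboxylate and phosphate groups then stood at 0.38, 0.56 and 0.37 in Cy/+, against 0.01, 0.21 and 0.10 with loess. The sodium, proton, bicarbonate and chloride group stood at -0.03, against -0.12 with loess. Of 46 genes with several probes, 10 had probes of opposite sign in Cy/+ and 13 in Cy/Cy, and the widest gap between probes of a gene in Cy/+ was 0.89, for Slc14a2.

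The members just inside the background rule had Cy3 levels of 6.58 (Slc5a5), 6.61 (Slc29a4 and Slc24a4), 6.65 (Slc39a14) and 6.66 (Slc14a1) on the log2 scale, and those just outside, above background on 3 arrays, lay at 6.48 (Slc29a2) to 6.87 (the second Slc34a2 probe). In Cy5, 238 of the 241 were above background on all 4 mutant arrays, and Slc5a5, Slc39a14 and Slc29a4 were not. Well-known carriers without a probe under their name in the set are Slc6a19, Slc6a20, Slc7a12, Slc5a8, Slc25a13, Slc47a1 and Slc36a1, and the last of these was above background on 1 of the 4 arrays.

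No carrier passed between 3 and 7 days in the mutant pools. Limma called 0 of the 241 and 0 of all probes in Cy5 of the 4 mutant arrays (47 carrier probes at an unadjusted p under 0.05, which is 19.5%, background 15.3%). Without normalization between arrays 147 passed, all lower at 7 days, with 48.6% of all probes, whose median was then -0.38. The zinc carrier Slc30a2 was farthest up, by 0.84 on probe 1 and 0.64 on probe 2 (adjusted p 0.12 and 0.16), followed by the potassium-dependent sodium-calcium exchanger Slc24a5 at 0.69, the peptide carrier Slc15a1 at 0.60, Nherf1 at 0.57 and Slc1a1 at 0.56. For Slc30a2 probe 1 the Cy5 levels were 11.11 and 11.50 at 3 days and 12.02 and 12.27 at 7 days, in Cy/+ and Cy/Cy in turn. Farthest down were Slc34a2 at -0.79, Slc16a3 at -0.78, the glutamine carrier Slc38a3 at -0.70, Slc2a5 at -0.63, Slc25a25 at -0.58 and the nucleoside carrier Slc28a1 at -0.55.

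In the Cy3 reference of the 6 arrays, which chose the set and is given without a test, 0 carrier probes were at least 2-fold higher at 7 days with no overlap (background 0.307%) and 1 was lower (background 0.223%). That 1 was Slc38a3, at 9.57, 9.66 and 9.88 at 3 days and 8.55, 8.73 and 8.71 at 7 days. The lactate carrier Slc16a3 came next among the carriers named, from 11.73, 11.78 and 11.75 to 10.88, 10.71 and 10.68. The change of Slc34a2 was -0.63 in the reference and -0.79 in the mutant pools. Within the mutant pools its level in Cy/+ at 7 days (8.52) was close to that in Cy/Cy at 3 days (8.48).

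**Figure D3:**
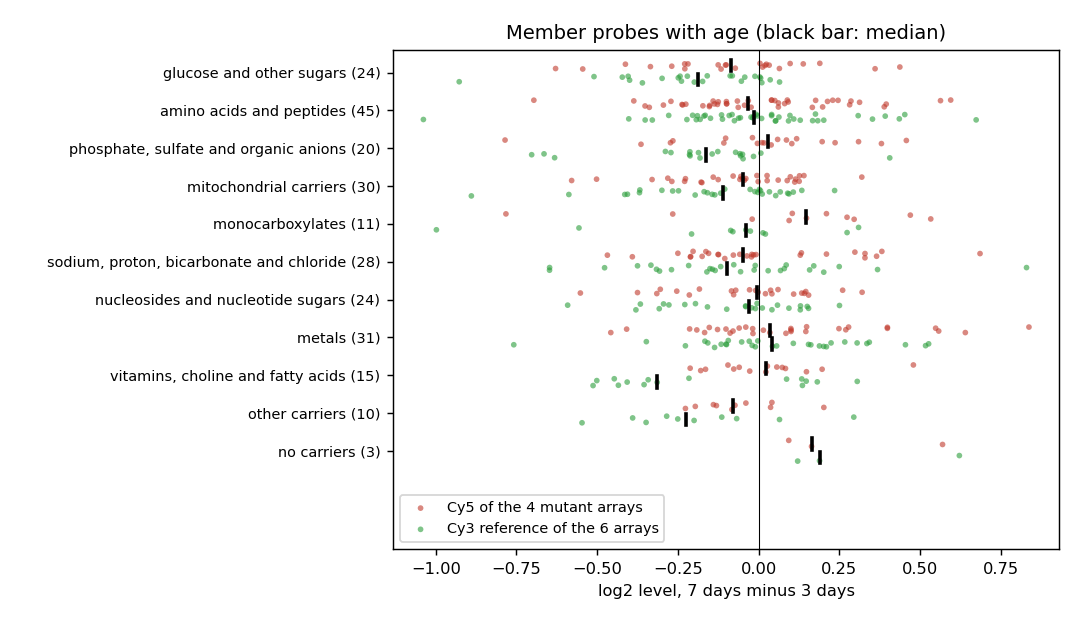
Points give the change in log2 level from 3 to 7 days for each of the 241 probes, in Cy5 of the 4 mutant arrays (red) and in the Cy3 +/+ reference of the 6 arrays (green), by carrier group, with black bars for group medians. Red points reach 0.84 (Slc30a2) and -0.79 (Slc34a2), green points reach -1.04 (Slc38a3), and the groups overlap.

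On the arrays labelled +/+, by limma, 165 of the 241 passed against the reference (68.5%, background 45.0%), 72 higher (background 26.6%) and 93 lower (background 18.4%). At 3 days 38.6% of the carrier probes, and at 7 days 33.6%, lay at least 2-fold from the reference, against 18.6% and 14.7% of all probes. On the mutant arrays at most 1.66% of the carrier probes and 0.913% of all probes did. The values of this paragraph and the next describe these libraries, whose label is in doubt, and not +/+ kidney.

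Several carriers of the proximal tubule were among the lowest. Slco1a3 (probe 1) read -5.14 at 3 days and -4.27 at 7 days, Slc5a2 (probe 1) read -4.60 and -4.34, Slc7a13 read -4.42 and -3.82, and Slc34a1 (probe 1) read -3.94 and -3.77. The heavy subunit Slc3a1 read -3.54 and -3.53, and Slc6a18 read -3.37 and -3.21. All of these 6 passed by limma, with adjusted p from 5.8e-06 to 1.8e-05. Slco1a6 was not well above background in Cy5 of either array, and was at least 5.01-fold lower there than in Cy3 of the same arrays. The urea transporter Slc14a2 was as low, at -4.17 and -4.08 on its brighter probe, while its dimmer probe read -0.44 at both ages. Not every proximal tubule carrier was low, since the probes of Slc2a2 had means of -0.34 and -0.01.

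Carriers best known from other organs were among the highest. The liver bile acid ligase Slc27a5 read 6.38 and 5.74 on probe 1 and 4.90 and 4.31 on probe 2, the citrate carrier Slc13a5 read 4.12 and 3.52, and the amino acid carrier Slc38a4 read 3.74 and 2.97. The neutral amino acid exchanger Slc7a10 read 4.18 and 2.96, and the glutamate carrier Slc1a3 read 3.99 and 2.97 on probe 1. Slc2a4, abundant in muscle and fat, read 2.61 and 2.96 on probe 1 and 0.49 and 0.80 on probe 2. The 30 SLC25 probes ran from -1.94 (Slc25a30) to 1.96 (Slc25a27), with 5 called higher and 12 lower (backgrounds 26.6% and 18.4%). The summed Cy5 level of the 4 adipose markers was 65696 and 58031 on these arrays against 2060 and 2049 in Cy3, and that of the 14 proximal tubule markers was 167922 and 130664 against 585772 and 460079, and their part in these values was not tested.

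**Figure D4:**
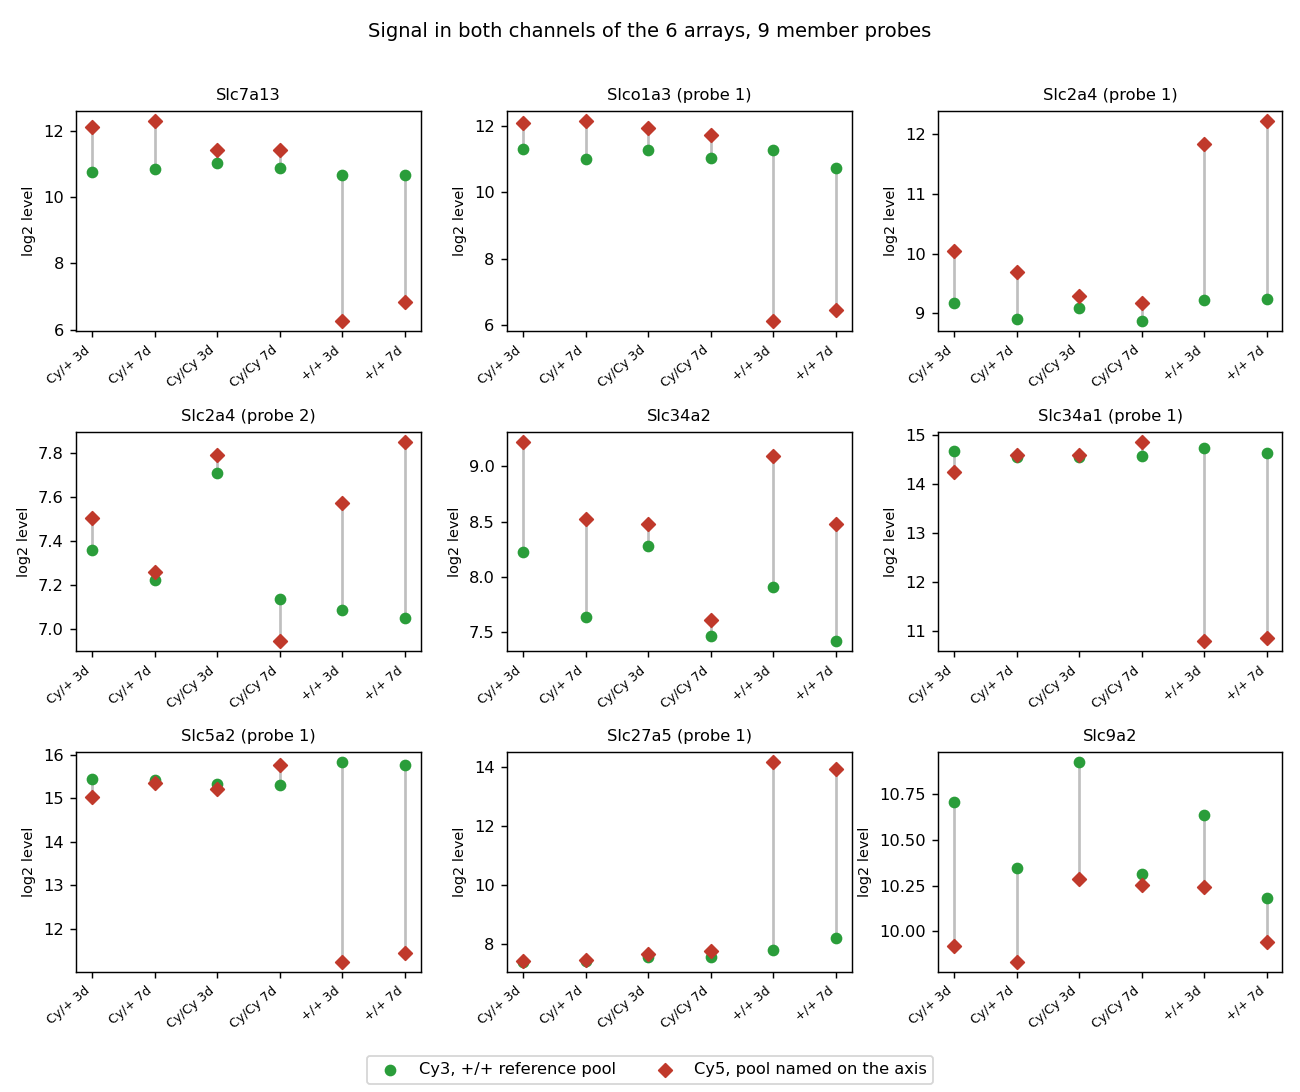
For 9 probes the log2 signal in Cy3 (green, +/+ reference) and Cy5 (red, the pool named on the x axis) is drawn for the 6 arrays, with a grey line joining the channels of 1 array and a y axis of its own in each panel. Slc7a13 and Slco1a3 are higher in Cy5 on the 4 mutant arrays and far lower on the arrays labelled +/+, Slc27a5 is high in Cy5 of the arrays labelled +/+ alone, and the 2 probes of Slc2a4 differ in level and in ratio.

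Setting the mutant ratios against those of the array labelled +/+ of the same age, as the labels imply, carried these values over. By limma 137 carrier probes passed for Cy/+ (background 29.6%), 81 higher (background 11.0%) and 56 lower (background 18.7%), and 135 for Cy/Cy (background 28.9%), 77 higher (background 10.6%) and 58 lower (background 18.4%). The 2 comparisons share the arrays labelled +/+ and are not independent. Slc7a13 was at 1.39 against its reference in Cy/+ and at -4.12 on the arrays labelled +/+, and Slc34a2 at 0.95 and 1.12. For Slc34a2 the difference between Cy/+ and the array labelled +/+ was therefore -0.17, and limma did not call it (adjusted p 0.3). Leaving out the Cy/+ array of 3 or 7 days gave 73 or 82 for Cy/+ (11.9% and 13.5% of all probes), and leaving out that of Cy/Cy gave 67 or 82 for Cy/Cy (10.2% and 13.1% of all probes).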

How the data were processed

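Each of the 6 arrays compared 2 pools of total kidney RNA, grouped as the labels give them. The authors deposited spot signals and local backgrounds as raw intensity, in scanner units, per the file headers (Agilent Feature Extraction 9.5.1.1, which gives probe coordinates of build rn3). The deposited log ratio is log10 of the software's processed Cy5 over Cy3, per the file headers. The value table of the whole series repeats that ratio, with a largest difference of 0.0. Series text and headers name different software versions, and the headers were followed.

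In R 4.3.3 with limma 3.58.1, mean signals were corrected with normexp (offset 50) and normalized by loess within each array. Control and outlier spots had weight 0, and spots of a probe were averaged. A probe was tested if on 2 or more arrays its Cy3 or its Cy5 signal was well above background (30904 of 41012), with fits by lmFit and eBayes and Benjamini-Hochberg adjustment over all of them at 0.05. A test of a mutant ratio against 0 treats the +/+ pool as a single control and does not include how +/+ kidneys vary. Nor does it separate a dye effect from a difference between the pools. Levels by channel were normalized between arrays (Aquantile). With so few arrays, their number sets the precision. The scripts were tested on simulated data.

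All 241 members matched the GRCr8 gene list, 164 by their own accession and 77 by symbol, and the symbol there differed for 6. For 1 of these 6, named Slc35b2, the accession belongs to Nfkbie, which is another gene and not a new name. That probe has no value in the text. The rule for named members took those called in a mutant comparison (over 30, the 15 highest and 15 lowest), the 6 highest and lowest of each comparison and a fixed list of well-known carriers. Slc6a13, Slc5a11, Slc30a7, Slc39a13, Slc16a14, Slc17a2, Slc25a30, Slc25a27 and the second probes of Slc2a4, Slc35b4, Slc16a6 and Slc14a2 were named after their values were seen. The values of 1 listed partner gene are not reported here. Members and lists were chosen with earlier results of these data known.

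Same-age arrays share a slide, which pairs them. Their deviations from the genotype means correlated at 0.23 between Cy/+ and Cy/Cy over all probes tested (0.34 over the members). Alternatives covered normalization, background, filters, probe choice, a block for age, the arrays fitted and leaving out each array.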

Additional observations from a re-analysis of the deposited data

How the results depend on the processing

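For Cy/+ against its reference the 40 called carrier probes became 0 with the software log ratio, 130 with median centring, 18 with scaling between arrays and 0 with all 6 arrays fitted. They numbered 77 with age as a replicate block, the fit that follows the pairing of same-age arrays, and 21 to 47 when 1 array was left out. The other alternatives gave 33 to 45. Slc7a13 lost its call with the software log ratio (limma adjusted p 0.12) at a log2 ratio of 1.40 against 1.39. The block changed no count of called carrier probes by over 1.5 times in another comparison. Over all probes, calls in Cy/Cy against its reference went from 2 to 15 with it. For Cy/Cy against its reference 113 passed with median centring and 0 to 3 on leaving out 1 array. Cy/Cy minus Cy/+ gave 0 to 3, Cy/+ minus the array labelled +/+ 73 to 158, Cy/Cy minus that array 67 to 154, and the arrays labelled +/+ against their reference 147 to 167. The last split 72 higher and 93 lower became 91 and 70 with median centring and 54 and 117 with the software log ratio. From 3 to 7 days, 147 passed without Aquantile (48.6% of all probes) and 50 in Cy3 of 6 arrays (15.2% of all probes), and leaving out an array could not be fitted, since no residual degree of freedom was left beside genotype. Where an arm kept 1 array, it was assumed to vary like the others. The ranges on leaving out 1 array are given here without the share over all probes.

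Values that changed sign were, with median centring, Slc43a2 (0.15) and Slc29a1 (0.26) in Cy/+ and Nherf2 (0.017) and Slc16a7 (0.11) in Cy/Cy, and Nherf1 (-0.0059) from 3 to 7 days without Aquantile. Among values of named probes in Cy/+, 299 kept side and direction, 139 lost the call and 4 gained it. Causes were not tested.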
